A study of Oryza sativa with 2 samples.

Results

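The sites described here are cut positions on rice transcripts that the deposited degradome table pairs only with osa-MIR5826-p5 or osa-MIR396h-p5_1ss16GA, 2 small RNAs whose sequences are short tandem repeats. A site is 1 transcript and 1 cut position at which reads start, and it was kept where every small RNA paired with it was one of these. The rule kept 600 of 2064 sites with reads (29.1%), on 579 transcripts of 299 genes among 823 genes. Of these, 237 sites in 107 genes were paired with osa-MIR5826-p5, and 363 sites in 197 genes with osa-MIR396h-p5_1ss16GA. No site was paired with both, but 5 genes held sites of each. The tissue is the mesocotyl, the stem-like organ between the seed and the shoot base of a grass seedling, from the indica cultivar P25 grown at 30°C on Murashige and Skoog medium. The dark library (D_5d) came from seedlings kept 5 days without light, and the light library (L_1h) from seedlings that were then moved into light for 1 h. Both groups are the same cultivar, with no mutation or transgene named in the labels, and each is 1 library with no replicate, so every difference between them is a difference between 2 libraries.

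Plant small RNAs guide an Argonaute protein to transcripts with near-complete complementarity, and Argonaute cuts the transcript opposite the middle of the small RNA. The downstream fragment keeps an uncapped 5′ end, and degradome sequencing reads such ends. Uncapped ends also arise in ordinary mRNA turnover, so a read at a predicted cut position is not by itself evidence of cutting by the small RNA paired with it.

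The sequences of both small RNAs are given as deposited, because the repeat is what sets them apart. Capitals mark bases 9 to 11 from the 5′ end, the bases opposite which cuts were listed. The miR396 family member osa-miR396e-5p, a regulator of growth-regulating factor (GRF) transcripts, is shown for contrast, since the name of the second small RNA refers to a miR396 hairpin.
osa-MIR5826-p5: tctctctcTCTctctctc
osa-MIR396h-p5_1ss16GA: tggtggtgGTGgtggagg
osa-miR396e-5p: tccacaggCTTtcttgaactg

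The first small RNA repeats a unit of 2 bases, and 100% of its bases from the third on equal the base 1 unit before. The second repeats a unit of 3 bases, with 93.3% of bases equal to the base 1 unit before. These were ranks 1 and 2 for this measure among the 634 small RNAs of the table, and the next, PC-5p-22391_188, stood at 61.1%. For osa-miR396e-5p the value was 30%. Below, osa-MIR5826-p5 is called the TC repeat and osa-MIR396h-p5_1ss16GA the TGG repeat. A transcript fully complementary to each would hold the following stretches, written 5′ to 3′ with capitals opposite bases 9 to 11.
Complement of the TC repeat: gagagagAGAgagagaga
Complement of the TGG repeat: cctccacCACcaccacca

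The 2 repeats were listed with far more transcripts than other small RNAs. Of the 25653 pairings of small RNAs with transcripts in the table, the TGG repeat had 5412 (21.1%) and the TC repeat 3143 (12.3%), and the next small RNA, osa-MIR6253-p3_1ss18AT, had 493. Together the repeats made up 33.3% of listed pairs. Reads were found at 6.71% of the TGG pairs (95% Wilson interval 6.07 to 7.40) and 7.54% of the TC pairs (6.67 to 8.52). Among the 17098 pairs of all other small RNAs, 15.6% had reads (15.03 to 16.1). Counted by gene, 197 of 3167 TGG genes (6.22%, 5.43 to 7.12) and 107 of 1874 TC genes (5.71%, 4.75 to 6.85) had reads, against 532 of 5541 genes of other small RNAs (9.60%, 8.85 to 10.4). By this measure the repeats' listed targets had reads less often in these libraries, with intervals that do not overlap those of the other small RNAs. Genes of other small RNAs also had more listed pairs each, which gives them more chances of a read. The difference was not present at every position. Shares by gene and position, for TC, TGG and other small RNAs, were 4.36%, 5.13% and 3.92% within the first 100 nt. They were 4.2%, 5.83% and 4.97% from 101 to 300 nt, and 5.09%, 6.33% and 9.61% from 301 to 1000 nt. From 1001 to 2000 nt they were 13.7%, 8.26% and 14.6%, and beyond 2000 nt 16.5%, 6.65% and 10.3%. Wilson intervals take genes or pairs as independent and cover counting error only. Those over pairs, sites or gene positions are too narrow, because versions of a transcript share reads. Transcript abundance, on which the chance of a read also depends, was not used here.

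The libraries differed in depth. Their totals, inferred from the deposited values, were 15422946 reads for the dark sample and 34051452 for the light sample, which was 2.21 times as deep. The authors' abundance measure is TPB, reads divided by their number of matching places and scaled to the library total, and 1 read with a single matching place is worth 64.8 TPB in the dark and 29.4 TPB in the light library. A floor of 3 reads stands at 195 and 88.1 TPB. The reads carry no known molecular identifiers and PCR copies count as separate reads, so intervals and floors cover counting error only.

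Pairing quality went with detection differently for the 2 repeats. The alignment score is a mispairing penalty from 0, full pairing, to 4. For the TC repeat, 31 of 326 genes listed at score 0 had reads (9.51%, 6.78 to 13.2), against 3.23% to 6% of genes at each other score. For the TGG repeat, 1 of 321 genes at score 0 had reads (0.31%, 0.06 to 1.74), against 30 of 310 at score 1 (9.68%, 6.86 to 13.5) and 15 of 128 at score 1.5 (11.7%, 7.23 to 18.4). That gene was LSF2, named for a starch glucan phosphatase of Arabidopsis, with 1 light read at position 73. Of the 321 genes, 190 (59.2%) carried words of transposons in their Gene Ontology (GO) terms, and none of these had reads. Leaving them out, 1 of 131 score 0 genes had reads (0.76%, 0.13 to 4.2), still below the interval at score 1. The 131 may still hold transposon genes, since genes with no GO term could not be marked. Among listed TGG genes without reads, 77.5% had any GO term. Over all scores, 0 of 252 TGG genes with transposon words had reads, and a count of 0 allows a share of up to 1.19%, taken as 3 counts of the total as for every limit on a count of 0 here. The upper Wilson limit is 1.5%. Genes of other small RNAs with such words also had none, 0 of 210.

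**Figure D1:**
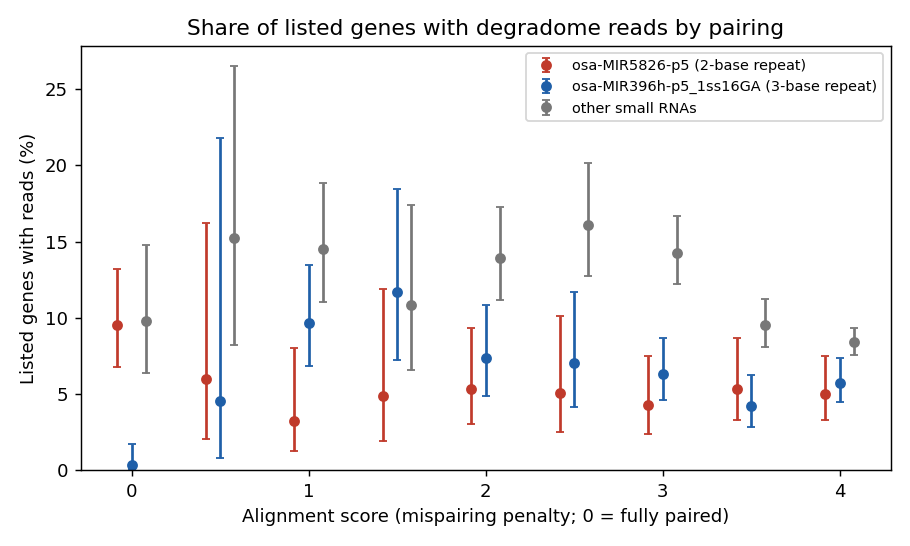
Share of listed genes with reads (percent, vertical axis) against alignment score (penalty from 0 to 4, horizontal axis) for the 2-base repeat, the 3-base repeat and all other small RNAs. Bars are 95% Wilson intervals. At score 0 the 2-base repeat stands at 9.51% and the 3-base repeat at 0.31%.

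The member sites of the 2 repeats also differ in their scores. Fully paired sites were 70 of 237 for the TC repeat (29.5%), from 31 genes. For the TGG repeat the most common scores were 4, with 114 of 363 sites (31.4%), and 1, with 58 sites (15.98%). The median score was 2.5 for TC and 3.0 for TGG sites, against 3.5 for sites of other small RNAs, where a lower score is better pairing. The cut lay opposite base 10 at 566 of the 600 sites (94.3%). The cut lay opposite base 9 at 22 TC sites (9.28%) and 3 TGG sites (0.826%), against 4.71% of sites of other small RNAs.

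Cut positions are distances from the start of the transcript in the table. Transcript lengths and the borders of UTRs and coding sequence were not used here, so a position cannot be placed in a part of the transcript. Positions are in each version's own coordinates, so the same reads can count at several positions of 1 gene. Counted once per gene and position, TC sites with reads had a median position of 1065 nt (quartiles 296 and 2064, n = 161), whereas listed TC pairs without reads had a median of 358 nt (145 and 902, n = 2077). The 161 TC positions with reads came from 107 genes. The gene lhcA-P4 alone gave 4 of them, each with the same 11 light reads. TGG sites with reads had a median of 617 nt (n = 254) and TGG pairs without reads 417.5 nt (n = 3706). With each transcript version counted, the TGG medians were close, at 365 nt with reads and 332 nt without. The TC medians were then 674 and 296 nt. For other small RNAs the medians were 1579 and 1481 nt. Both repeats were thus listed nearer the transcript start than other small RNAs.

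For the TC repeat the share with reads was higher beyond 1000 nt than nearer the transcript start. Reads were present at 4.36% of listed gene positions within the first 100 nt, 4.2% from 101 to 300 nt and 5.09% from 301 to 1000 nt. The share was 13.7% from 1001 to 2000 nt (10.2 to 18.3) and 16.5% beyond 2000 nt (12.6 to 21.4). These intervals are too narrow, since versions of 1 gene can give several positions with the same reads. The step at 1000 nt was present in each range of scores, from 5.97% to 15.4% at scores 0 to 1, from 4.89% to 13.7% at 1.5 to 2.5, and from 3.74% to 15.4% at 3 to 4. With 1 item per gene at its median position, 70 of 1528 TC genes at or before 1000 nt had reads (4.58%) and 37 of 346 beyond it (10.7%, 7.86 to 14.4). By gene the TGG repeat stood at 6.24% at or before and 6.17% beyond 1000 nt. By gene and position its shares ran from 5.13% within the first 100 nt to 8.26% from 1001 to 2000 nt and 6.65% beyond. By score they went from 5.34% to 6.35% at 0 to 1, from 7.04% (5.21 to 9.45) to 13.1% (8.75 to 19.2) at 1.5 to 2.5, and from 5.69% to 6.94% at 3 to 4. By gene, other small RNAs also went up, from 7.44% to 11.4%. Their shares by gene and position were 3.92% within the first 100 nt, 4.97% from 101 to 300 nt and 9.61% from 301 to 1000 nt. From 1001 to 2000 nt the share was 14.6%, and beyond 2000 nt it was 10.3%. By score they rose from 9.47% to 16.7% at 0 to 1 and from 9.25% to 13.4% at 1.5 to 2.5. At 3 to 4 they rose from 7.62% to 11.8%. A higher share beyond 1000 nt was thus not particular to the TC repeat. Positions beyond 1000 nt exist only on longer transcripts, and the part of transcript length in this step was not tested.

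**Figure D2:**
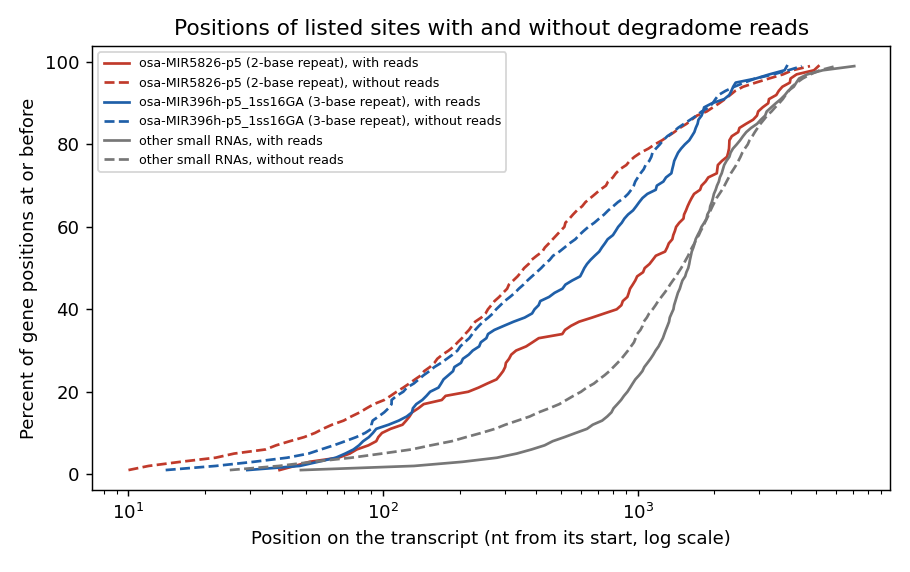
Positions of listed pairs on their transcripts (nt from the transcript start) for each repeat and for other small RNAs, with reads and without reads, 1 value per gene and position. A gene whose versions differ in coordinates gives several values. TC pairs with reads have a median of 1065 nt and those without reads 358 nt. The TGG medians lie closer, at 617 and 417.5 nt.

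A few transcripts held more than 1 member position. DREB2A, a transcription factor of the drought and heat response, had TGG sites at positions 153 and 256, 103 nt apart on each of 8 transcript versions, with 2 dark and 2 light reads in all. ZS01g0253600 had positions 206 and 254 on 4 versions. Both ZS08g0305900, with 0 dark and 3 light reads, and ZS11g0561800, with 3 and 1, held 4 member positions over their versions. Each version held 2 of them, in its own coordinates, so these need not be 4 separate cuts. Of the 5 genes with sites of both repeats, HOX16, a homeodomain-leucine zipper transcription factor, had the most reads. Its TGG site at position 1816 had 8 dark and 25 light reads, and its TC site at position 500 had 0 and 1.

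Member sites were shallow. The median member site had 2 raw reads over both libraries and the highest had 67, against a median of 3 and a highest of 3341 at sites of other small RNAs. A single read made up 290 of the 600 sites (48.3%), against 464 of 1464 other sites (31.7%). By gene, 141 of 299 (47.2%) rested on 1 read, 242 on 3 or fewer, and 22 had 10 or more. Reads with a single matching place were found at 164 sites (27.3%), against 18.1% of other sites. The median number of places was 3 in both sets and the highest 10, and transcript versions of 1 gene can make up such places.

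Degradome categories rank the reads at a site against the rest of its transcript, from 0, which by common usage marks the single highest position, to 4, which in these values held positions with 1 read. Each site was counted here at the lower of its 2 libraries' categories. Category 0 was given to 3 of 600 member sites (0.5%), against 136 of 1464 other sites (9.29%). The 3 are versions of 1 gene, PSK1 (ZS06g0560200), which encodes a precursor of the peptide hormone phytosulfokine. PSK1 was fully paired with the TC repeat at position 674 and had 0 dark and 5 light reads. No TGG site was in category 0, which allows a share of up to 0.826% (upper Wilson limit 1.05%), and no member site was in category 0 in the dark library. Category 1 held 1 site, on ZS12g0374000 at position 1091 with 2 dark reads. Category 2 held 268 sites (44.7%) and category 4 held 311 (51.8%), whereas 34.2% of other sites were in category 4. The authors' deposited p-values per site were under 0.05 at 0 of 600 member sites, which allows up to 0.5%, and at 140 of 1464 other sites (9.56%). The lowest at a member site was 0.520, and the lowest elsewhere was 0.00232.

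**Figure D3:**
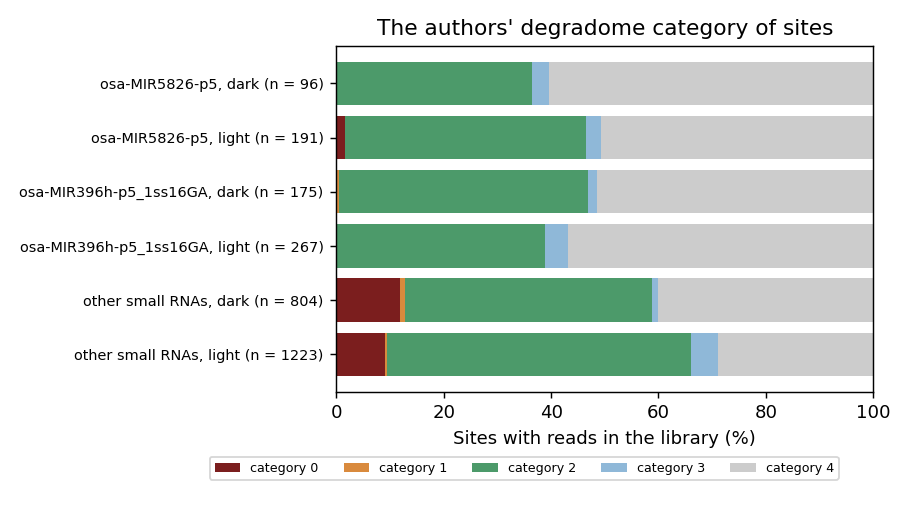
Share of sites in each degradome category (percent) for the 2 repeats and for other small RNAs, among sites with reads in the dark or the light library. Category 0 holds 0.5% of member sites and 9.29% of other sites, and category 4 holds 51.8% and 34.2%.

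Reads in both libraries were found at 129 member sites (21.5%), against 38.5% of other sites. The dark library had reads at 271 member sites in 139 genes, and the light library at 458 sites in 223 genes. By gene, 63 had reads in both, 76 in the dark library alone and 160 in the light library alone. The light library is the deeper. Thinned on paper to the dark total, it would be expected to have reads in 144 member genes, close to the 139 of the dark library. For genes without a member site the same figures were 332 expected in light and 272 in dark.

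Summed TPB over the member sites was 21663 in the dark and 19568 in the light library, which gives 0.903 for light over dark. The ratio was 0.981 over TC sites and 0.851 over TGG sites, and 1.41 over sites of other small RNAs, or 1.24 without the miR528 target gene that had most reads. Member sites took 6.09% of the TPB at listed sites in the dark and 3.995% in the light library. The direction of the member ratio depends on the scaling, since it was 1.02 when libraries were matched on the median ratio of the 692 sites with reads in both, and 0.666 when matched on the sum over those sites.

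The highest member gene in both libraries was RBP47, named for RNA-binding proteins with affinity for poly(A) and uridine-rich RNA. Its TC site, at position 1367 or 2307 depending on the version, had 25 dark and 42 light reads. In TPB this is 1621 and 1233, a light over dark ratio of 0.761 with a 95% counting interval of 0.453 to 1.30. The second, ZS03g0582000, which has no symbol or description in the table, had 18 and 33 reads at position 66 (ratio 0.830, 0.454 to 1.57). Neither differed between the libraries beyond counting error. Among TGG sites the highest were HOX16 with 8 and 26 reads over its sites (1.47, 0.647 to 3.76) and RPL37A, a protein of the large ribosomal subunit, with 12 and 20 reads at position 90 (0.755, 0.351 to 1.69). MT4C, a metallothionein by name, a class of small metal-binding proteins, had 13 and 13 reads at position 326 (0.453, 0.193 to 1.06).

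Several transcription factor genes followed. NAC079, of the plant NAC family, had 8 and 17 reads at a TC site at position 1415 (0.962, 0.394 to 2.58). NFYA9, a subunit of the CCAAT-binding factor NF-Y, was fully paired with the TC repeat at position 582 and had 7 and 11 reads. ERF008, of the ethylene response factor family, had 3 and 9 reads at a TGG site at position 554. None of these ratios had an interval clear of 1. TIFY6A, of the family that holds the jasmonate signalling repressors, had 6 and 6 reads at a TC site at position 74 (0.453, 0.121 to 1.69). ASK7, named for a shaggy-like kinase that in Arabidopsis restrains brassinosteroid signalling, was fully paired with the TC repeat at position 120 in 5 versions and had 2 and 6 reads. RPS20, of the small ribosomal subunit, had 6 and 7 reads at position 214.

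Other TGG genes with 10 or more reads had ratios on either side of 1, and every interval held 1. RPP25L, described as a ribonuclease P subunit, had 8 and 12 reads at position 678 (0.679, 0.255 to 1.92), and ACA8 had 6 and 10 at position 3709. JMJ25, whose symbol and ribosomal description conflict, had 6 and 6 reads at position 797. ZS01g0707100, described as a formin-like protein, a class that nucleates actin filaments, had 6 and 4 reads at position 1203 (0.302, 0.0627 to 1.27), as did ZS01g0754400 at position 143. ZS08g0566800 had 3 and 7 reads at position 171 (1.06, 0.241 to 6.33).

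**Figure D4:**
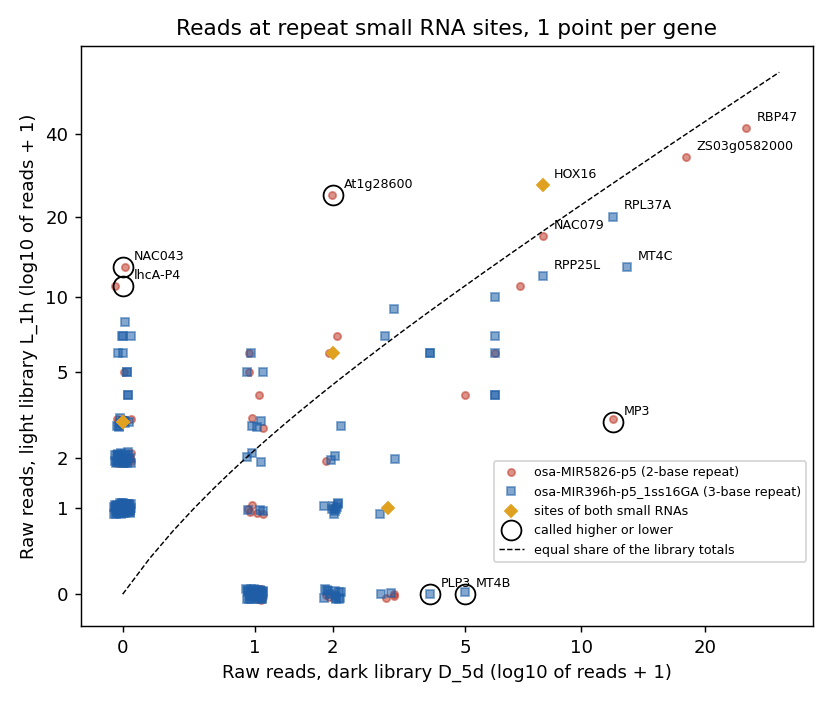
Raw reads per member gene in the dark library (horizontal) and the light library (vertical), both on a log10 scale of reads plus 1. The dashed line marks equal shares of the library totals, rings mark the called genes, and points under 4 reads carry a small random offset. RBP47, at 25 and 42 reads, is the highest in both libraries, and most genes lie at 0 to 3 reads.

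A gene was called higher or lower in light when its TPB ratio was at least 2-fold and its counting interval excluded 1. A gene with no read in 1 library was taken to pass the 2-fold threshold, whatever its fold against the floor. A gene with reads in the light library alone needs 10 reads for a call, and one with reads in the dark library alone needs 4. Of all 823 genes with sites, 3.28% were called higher and 2.31% lower. Among the 299 member genes 3 were called higher (1.00%) and 3 lower (1.00%), both shares below the background. At the authors' scaling, a gene with 3 or fewer reads cannot be called. That held for 242 of the 299 member genes, against 313 of 532 genes with sites of other small RNAs. The part of read depth in the lower shares was not tested. By site the background was 2.52% higher and 2.37% lower, and the members had 8 higher (1.33%) and 6 lower (1.00%). With libraries matched on the sum over shared sites, the split of member genes was 1 higher and 11 lower in place of 3 and 3. With 1 library per condition these calls compare libraries, and no test of the conditions was possible.

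The 3 genes called higher in light all had TC sites. At1g28600, described in the table as alpha-L-fucosidase 3-like, had 2 dark and 24 light reads at a fully paired site at position 1545. Its TPB was 129.7 in the dark library and 704.8 after light, a 5.44-fold ratio (1.35 to 47.4). With the sum scaling its ratio of 4.01 had an interval from 0.995 and was not called. NAC043, another NAC family gene, had 0 and 13 reads at a fully paired site at position 1332. Set against the floor of 3 dark reads this is 1.96-fold higher, with an interval from 1.38. A fold against the floor is not a lower limit on the change. NAC043 was the only member gene called higher under all 3 scalings. lhcA-P4, a light-harvesting protein of the photosystem I antenna, had 0 and 11 reads, 1.66-fold higher against the floor. Its interval ran from 1.14, and it lost its call with the sum scaling.

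The 3 genes called lower in light kept that call under all 3 scalings, but with at least 10 reads required MP3 alone remained, since MT4B and PLP3 have fewer. MP3 had 12 dark and 3 light reads at a TC site at position 97, a ratio of 0.113 (0.0205 to 0.420). The other two were singled out after their values were seen. MT4B, a second metallothionein by name, had 5 and 0 reads at a TGG site at position 205 or 392. Set against the floor of 3 light reads this is 3.68-fold lower, with an interval up to 0.494. PLP3 had 4 and 0 reads at TGG sites, 2.94-fold lower against the floor, with an interval up to 0.686. None of the 197 TGG genes was called higher, and the highest light reads without a dark read among them were the 8 at position 181 of ACL1.2, an acyl carrier protein of fatty acid synthesis. Of the 22 member genes with 10 or more reads, 18 had an interval that held 1.

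Over the 63 member genes with reads in both libraries the median log2 light over dark TPB ratio was -0.92, with 45 below 0 and 18 above. The median was -0.44 over 22 TC genes and -1.14 over 39 TGG genes, against -0.14 over 189 genes without a member site. The value -1.14 is that of 1 read in each library, which 8 of the 63 genes had, and 43 of the 63 had under 10 reads in all. These medians cover only genes with reads in both libraries, not all members.

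By the deposited annotation, 84.6% of member genes had a GO term and 47.5% a KEGG pathway, against 89.5% and 54.6% of other genes with sites. The GO term nucleus was the most common and was held by 103 member genes (34.4%), near the 33.6% of other genes with sites. Among listed genes without reads it was held by 22.2% for TC and 22.1% for TGG, of which 65.0% and 77.5% had any GO term. Of genes with reads, 83.2% for TC and 85.3% for TGG had one. This gap in annotation also applies to each share of genes without reads given below. Among KEGG pathways, plant hormone signal transduction was held by 15 member genes (5.02%), plant-pathogen interaction by 13 (4.35%) and ribosome by 11 (3.68%). Other genes with sites stood at 5.73%, 4.39% and 2.29%. All counts of functions are descriptions, with no test.

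Words of transcription factors marked 36 member genes (12.0%), against 17.7% of other genes with sites. The share was 9.35% of TC genes with reads and 13.7% of TGG genes with reads, against 6.96% and 7.37% of those without. Of the 36 genes 1 was called higher, NAC043, and 0 lower. Of the 93 other genes with sites and such words, 10 were called higher and 4 lower. The 36 member genes range from HOX16 with 34 reads to genes such as ARF17, of the auxin response factor family, with 1 light read. Hormone words marked 27 genes (9.03%), with 0 calls. They marked 11.6% of other genes with sites, with 4 called higher and 3 lower. Besides ERF008, TIFY6A and ASK7, the 27 include COI1B, of the jasmonate receptor family, with 2 dark reads and none in light. Also among the 27 is IAA30, of the Aux/IAA repressors of auxin signalling, with 2 light reads and none in dark.

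Chloroplast and photosynthesis words marked 28 genes (9.36%), with 1 called higher, lhcA-P4, and 0 lower. They marked 11.3% of other genes with sites, with 1 called higher and 2 lower. Light and circadian words marked 11 (3.68%), again with lhcA-P4 as the 1 call, against 2.10% of other genes with sites, with 0 calls. Cell wall words marked 13 (4.35%), with At1g28600 and NAC043 called higher and 0 lower. They marked 3.44% of other genes with sites, with 0 calls. The other cell wall member genes had 4 reads or fewer each, among them a cellulose synthase subunit gene, CESA3, with 1 light read. Ribosome and translation words marked 13 genes (4.35%), which were 4.67% of TC and 4.06% of TGG genes with reads against 1.53% and 1.68% of those without. Other genes with sites stood at 3.63%, close to the member genes. RPL37A and RPS20 lead this group, and each of the other 11 had 1 or 2 reads.

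RNA processing words marked 19 genes (6.35%), against 8.40% of other genes with sites. The share was 8.41% of TC genes with reads against 3.57% without, and 5.08% of TGG genes with reads against 4.78% without. Ubiquitin and proteasome words marked 15 (5.02%), led by FBL10, an F-box protein by name, with 0 dark and 6 light reads. Chromatin and histone words marked 9 (3.01%), protein kinase words 8 (2.68%) and vesicle traffic words 8 (2.68%). Transporter words marked 11 (3.68%) and protein folding words 5 (1.67%). Other genes with sites stood at 3.24% for ubiquitin, 3.05% for chromatin and 3.24% for kinase words. They stood at 2.86%, 4.01% and 1.34% for vesicle traffic, transporter and protein folding words. Of these other genes, 3 with RNA processing words were called higher and 3 lower, and 1 with chromatin words lower. None of the member genes in these groups was called. Their leading genes had few reads, such as AUXI1 (vesicle traffic) with 1 dark and 6 light reads, tom1 (transporter and vesicle traffic) with 0 and 5, and At4g01440 (transporter) with 1 and 4. CKI1 (protein kinase) had 0 and 4, At1g47790 (ubiquitin) 0 and 3, and ZS01g0464600 (chromatin) 0 and 2. Of the protein folding genes, ZS02g0355400 had 0 and 7 and Dnajb13 0 and 2. Transposon words, a list added after values were seen, marked 0 of 299 member genes and 8.48% of the listed TGG genes without reads.

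**Figure D5:**
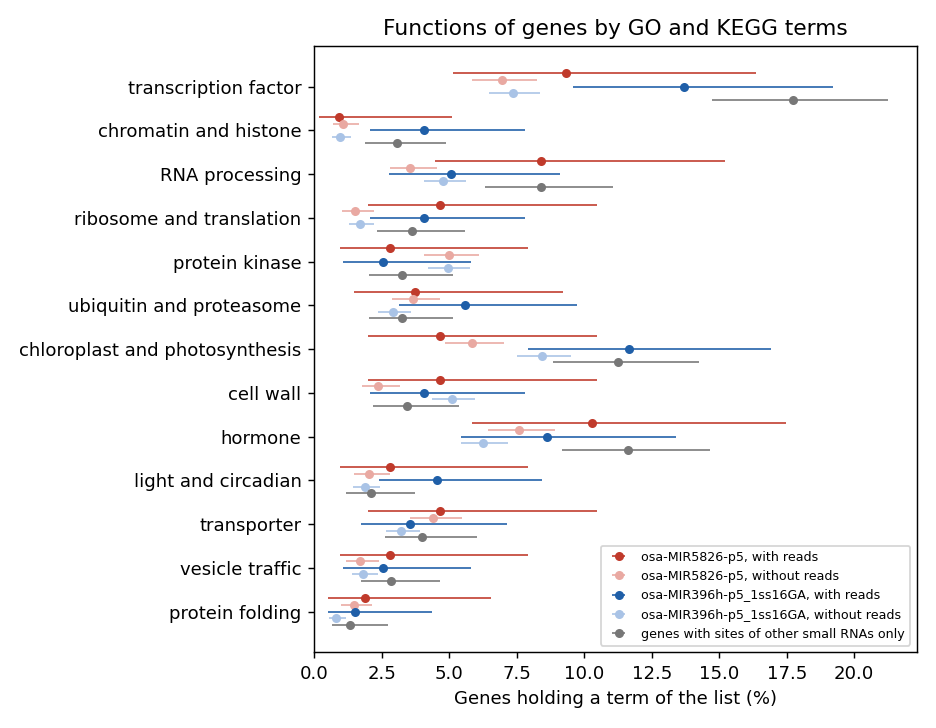
Share of genes (percent) whose deposited annotation holds the words of each functional list, for the repeats' genes with reads, their listed genes without reads and other genes with sites. Transcription factor words mark 9.35% of TC genes with reads, 13.7% of TGG genes with reads and 17.7% of other genes with sites.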

How the data were processed

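Degradome libraries from rice mesocotyl total RNA, 1 per condition, were sequenced on a HiSeq 2500, per the labels' protocols. The sources used here name no aligner, target finder, build or annotation. Raw read counts are whole numbers that the authors deposited per pair and library. The authors' normalized reads and TPB are signals: reads over the number of matching places, and that value times 1 constant per library, whose inverse was taken as the library total. The alignment score, category and p-value are the authors' deposited values, per the file headers. Columns headed D_1h were taken to be the dark library because the D_5d TPB column is their reads times 1 constant. A further 20 columns of the study's subset sheets were not used, and 1 line was empty. Positions leave out 4 listed pairs with an empty alignment range. Symbols and descriptions are those deposited. Some seem taken from other species, and some conflict (HOX16 is described as an oxidoreductase).

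Sites were collapsed to transcript and position, and genes over transcript versions, taking the sum of TPB over all versions and the raw reads of the version with most. For light over dark, raw reads gave an exact Clopper-Pearson 95% interval, scaled by library totals to the TPB ratio. It was checked on simulated data. A ratio against 0 reads was set against a floor of 3 reads per library. No pseudocount was used. Alternatives were 2 other scalings, raw reads, minimum reads, a 1.5-fold threshold, site filters and thinning of the light library. Genes named are, per small RNA, the 10 with most reads, the 5 highest and 5 lowest ratios among genes with at least 10 reads, called genes with at least 20 reads, genes with a category 0 site, the 3 with most positions, and the 2 with most reads in each of the word lists. Others were named after their values were seen, namely LSF2, MT4B, PLP3, ZS12g0374000, ZS01g0253600, COI1B, IAA30, ARF17, CESA3, and those of the closing section. Members and lists were chosen with earlier results of these data known. Python 3.11.15, pandas 2.3.3, scipy 1.17.1 and matplotlib 3.10.9 were used.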

Additional observations from a re-analysis of the deposited data

How the results depend on the processing

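With libraries matched on the sum over shared sites, 1 member gene was called higher and 11 lower, in place of 3 and 3, and 1 site higher and 20 lower, in place of 8 and 6. This scaling moved every log2 ratio by -0.44, and matching on the median ratio moved it by 0.18. Among genes or sites with at least 10 reads, 1 gene and 1 site were called lower, both MP3, since MT4B and PLP3 have fewer reads. Raw reads in place of TPB and a 1.5-fold threshold changed no count of calls. The median log2 ratio of member genes with reads in both libraries, -0.92, was -0.74 with the median scaling, -1.36 with the sum scaling and -0.52 with at least 10 reads. The 139 member genes of the dark library became 30 with at least 3 reads and 63 without category 4. The 223 of the light library became 64 and 114 under the same filters. With at least 2 reads, a filter added after seeing the data, the counts were 63 and 114. Thinning the light library to the dark total, also added then, gave 144. The median member position of 751 nt became 410 nt with each transcript version counted. No paired analysis was possible because each condition has 1 library.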

Other observations

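Of the 299 member genes, 8 also held a site of another small RNA, and these were looked at after their values were seen. In RBL19 the TC site at position 228 had 1 dark read and none in light, whereas a site of osa-MIR2118e-p5_2ss12TA18CT at position 1385 of the same transcript had 5 and 12. In IAA30 the TGG site at position 365 had 0 and 2 reads and the osa-miR408-5p site at position 1498 had 2 and 2. In AUXI1 the order was the other way, with 1 and 6 reads at the TC site at position 2045 and 1 and 3 at the osa-MIR821a-p3 site at position 2630. In ACA8, which the table describes as a plasma membrane ATPase, the TGG site at position 3709 had 6 and 10 reads and a PC-3p-40434_60 site at position 4006 had 2 and 4. The remaining 4 genes were REIL1, Naa11, ZS02g0012600 and ZS06g0255800, with 1 to 6 reads at their member sites.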
